A study of Mus musculus with 4 samples.

Results

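The 8 transcription factor genes Ptf1a, Rbpjl, Bhlha15, Nr5a2, Gata4, Gata6, Foxa2 and Foxa3 were followed in tissue lying beside pancreatic tumours of mice. They were taken by symbol from a table of 55401 Ensembl gene identifiers, in which each of the 8 symbols matched 1 identifier. RNA-seq libraries came from 2 groups of mice that both carried the pancreatic cancer model, for which the labels name the mouse pancreatic ductal adenocarcinoma line Panc02. The CRFR1-KO group, with 2 libraries (CRFR1-KO 1 and CRFR1-KO 2), had a conditional knockout of CRFR1, the receptor for the stress peptide corticotropin-releasing factor. The WT group had 2 libraries (WT 1 and WT 2) and shared the tumour but not the knockout. The series title places the receptor in mast cells. The sources used here give no driver of the deletion, strain, sex or age. They also do not state whether each library is a separate animal. The p-values therefore cover the variation among these 4 libraries, and that variation may be technical.

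Acinar cells make and secrete digestive enzymes, and a small set of transcription factors keeps them in that state. The bHLH protein PTF1A binds DNA together with an E protein and either RBPJ, the Notch effector, or RBPJL, the acinar paralogue that takes its place as the cells mature. This PTF1 complex drives the enzyme genes and also Ptf1a and Rbpjl themselves. MIST1, the product of Bhlha15, shapes the secretory apparatus. The nuclear receptor NR5A2, also named LRH-1, works beside PTF1 on enzyme genes, and GATA4, GATA6, FOXA2 and FOXA3 are factors of pancreas and gut development, of which FOXA2 is also used by islet and duct cells. When acinar cells are injured they can lower this programme and take on ductal features with genes such as Sox9 and Krt19, a change known as acinar-to-ductal metaplasia.

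The libraries held between 63495457 and 71203640 counts. The labelled tissue was exocrine pancreas by its markers: 15 acinar genes, mostly digestive enzymes, held 42.8% and 44.4% of all counts in CRFR1-KO, against 41.8% and 41.1% in WT. Crhr1, the targeted gene, had a count of 0 in all 4 libraries, which allows up to 0.0363 to 0.048 CPM (counts-per-million, for 3 counts in a library), so its loss could not be checked. Of 7 mast cell markers 5 were at 0 in every library, among them Cma1, Mcpt4 and Tpsb2. Kit and Cpa3 were detected in all 4 libraries. Kit was at 14.0 and 10.7 CPM in CRFR1-KO and 11.4 and 13.7 CPM in WT. Cpa3 had 33 and 4 counts in CRFR1-KO and 39 and 8 in WT. Of 7 hepatocyte markers 3 (Serpina1a, Fgb and Cyp3a11) were at 0 throughout, and the summed level of the list was 11.5 and 9.73 CPM in CRFR1-KO and 6.93 and 15.1 CPM in WT, nearly all of it from Ttr. Of 7 intestinal markers 4 (Fabp1, Fabp2, Cdx1 and Cdx2) were at 0, and the sum was at most 1.23 CPM. Of 7 gastric markers 3 (Gkn1, Gkn2 and Muc5ac) were at 0, while Tff2 alone stood at 1075 and 887 CPM in CRFR1-KO and 697 and 986 CPM in WT. The part of these tissues in the results was not tested. Other cell types of the tissue differed between libraries. WT 1 stood apart. Summed, 10 fibroblast markers were at 158 and 170 CPM in CRFR1-KO, against 491 CPM in WT 1 and 227 CPM in WT 2. Gene by gene, both CRFR1-KO libraries lay below both WT libraries for 9 of these 10, and above for 0. Among 7 macrophage markers they lay below for 5 and above for 0. Over all tested genes the shares were 16.9% below and 16.6% above. Without WT 1 the median log2 fold change was -0.47 for the fibroblast and -0.50 for the macrophage markers. The summed level of 16 islet markers was 246 and 305 CPM in CRFR1-KO, against 43.3 CPM in WT 1 and 282 CPM in WT 2. In such bulk tissue, fewer cells of a type and less RNA per cell cannot be told apart.

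All 8 factors were detected in all 4 libraries, with counts from 355 to 23304, and all 8 passed the filter on low counts. Their levels were compared with each other as CPM per kb of annotated exon. Rbpjl was the highest of the 8, at 58.8 and 62.1 CPM per kb in CRFR1-KO and 42.0 and 52.5 CPM per kb in WT, which placed it 185th among 15131 tested genes. Bhlha15 came next at 46.9 and 54.9 CPM per kb in CRFR1-KO and 39.9 and 37.5 CPM per kb in WT (208th). The ranges of these neighbours over the 4 libraries overlapped, although Rbpjl was the higher in 4 of 4 libraries.

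Ptf1a averaged 15.9 ± 4.0 CPM per kb over the 4 libraries and Gata4 7.98 ± 1.11 CPM per kb (SD, n = 4 libraries). Each was separated from its neighbours in the order, with Bhlha15 2.86 ± 0.31 times Ptf1a and Ptf1a 1.99 ± 0.33 times Gata4. Foxa2 averaged 4.57 ± 0.56, Nr5a2 4.41 ± 0.72 and Foxa3 3.67 ± 0.68 CPM per kb, and these 3 overlapped, with Foxa2 above Nr5a2 in 2 of 4 libraries. Gata6 was the lowest at 1.13 ± 0.18 CPM per kb, in the top 38.6% of tested genes, whereas the other 7 lay in the top 13.8%. The order depends on the length used. Scaled on the principal transcript alone, Rbpjl stood at 126 ± 21 CPM per kb, clear of Bhlha15, and Nr5a2 at 14.0 ± 2.3 CPM per kb, which moved it to the fourth place, its range overlapping that of Ptf1a.

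**Figure D1:**
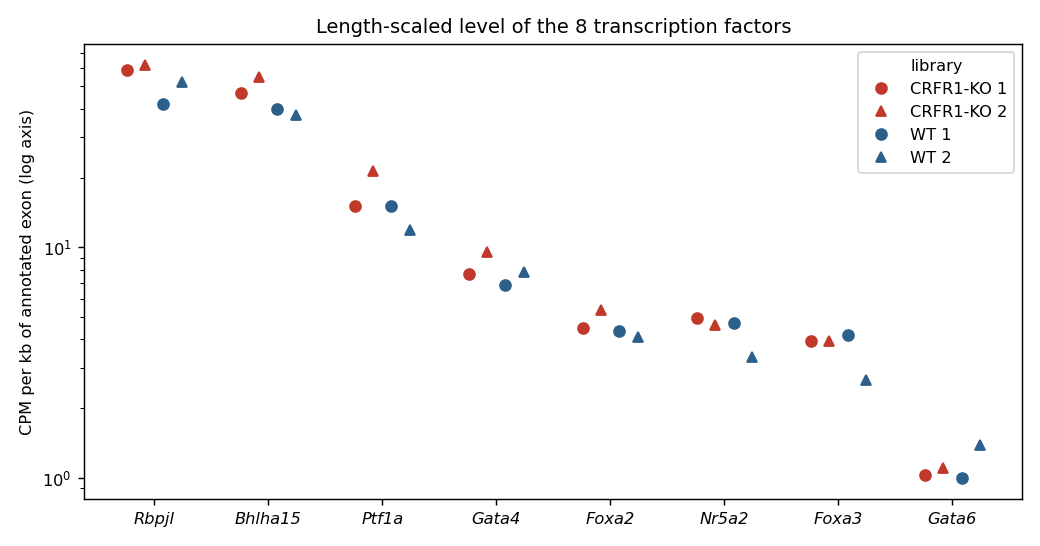
CPM per kb of annotated exon on a log axis for the 8 transcription factors, ordered from the highest mean to the lowest, with CRFR1-KO libraries in red and WT libraries in blue. Rbpjl and Bhlha15 lie between 37.5 and 62.1 CPM per kb, and Gata6 lies lowest at 0.996 to 1.39 CPM per kb.

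Between the genotypes, 0 of the 8 factors passed the edgeR quasi-likelihood test after adjustment over all 15131 genes (edgeR adjusted p = 0.9999 for each), against 0.0264% of all tested genes. At an unadjusted edgeR p under 0.05 the count was also 0 of 8, against 4.86% of all genes, of which 1.71% were higher and 3.15% lower. DESeq2 called 0 of the 8 (0.391% of the genes it tested) and limma-voom 0 of the 8 (0% of all). The measured values of 7 factors were higher in CRFR1-KO than in WT and Gata6 was lower, with log2 fold changes from -0.16 to 0.44 and a median of 0.24. Among all tested genes 49.2% were higher and the median was -0.01. The 95% intervals all spanned 0 and reached at most a fold of 1.96, for Ptf1a. In 3 factors, Rbpjl, Bhlha15 and Foxa2, both CRFR1-KO libraries lay above both WT libraries on the scaled library sizes. This was so for 16.6% of all tested genes, and 33.5% did not overlap in either direction. On library totals Bhlha15 and Foxa2 overlapped. CRFR1-KO 1 had 10251 and 661 counts of these genes in 70074733, and WT 1 had 11515 and 852 in 69960284. For Gata6, library totals put both CRFR1-KO libraries below both WT libraries. The share of all tested genes that did not overlap was not counted on library totals. On the scaled sizes the mean difference exceeded the larger difference between libraries of a genotype for 2 factors. These were Rbpjl and Bhlha15, and not the other 6. The share of all tested genes that meet this was not counted, so the 2 cannot be set against it. On library totals neither Rbpjl nor Bhlha15 met it. Leaving out each library in turn gave medians of the 8 from 0.19, without CRFR1-KO 2, to 0.36, without CRFR1-KO 1 and without WT 1. A permutation test of a single gene with 2 libraries against 2 cannot give a two-sided exact p under 0.333.

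**Figure D2:**
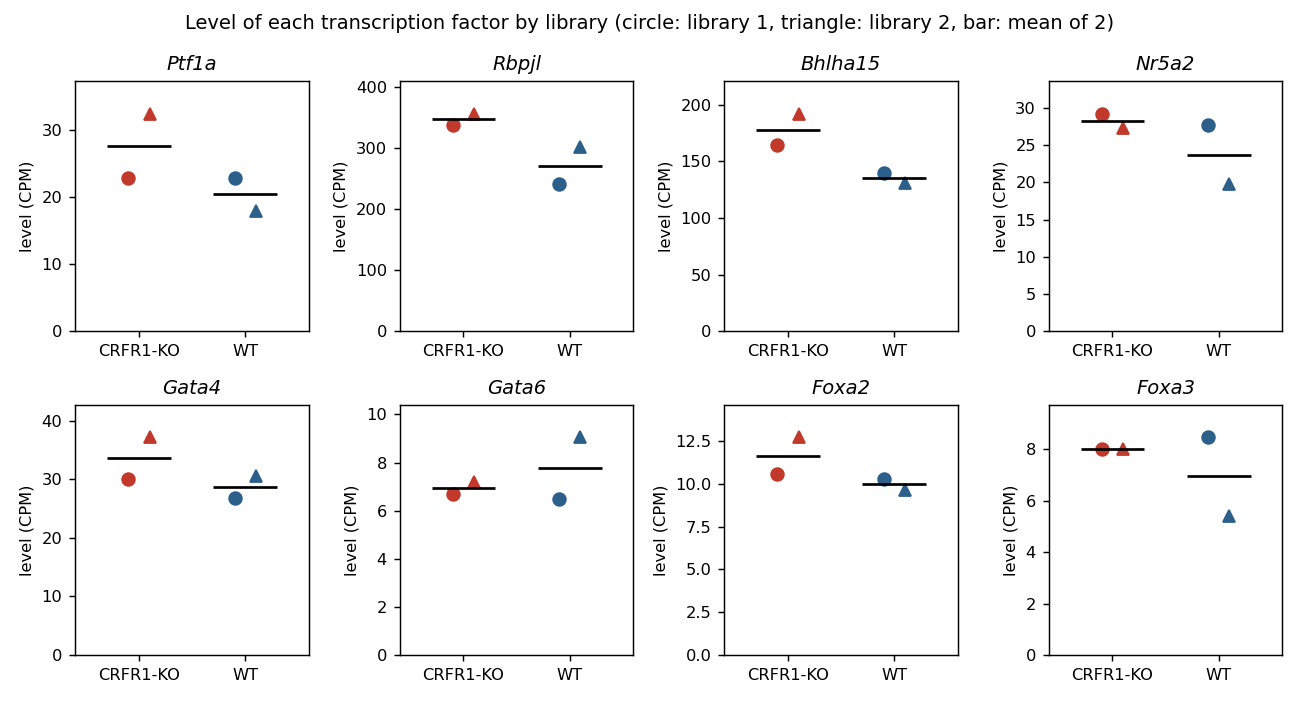
Level in CPM of each transcription factor in the 4 libraries, CRFR1-KO in red on the left and WT in blue on the right, with a bar at the mean of each genotype's 2 libraries. On the scaled library sizes the genotypes do not overlap for Rbpjl, Bhlha15 and Foxa2, and overlap for the other 5 genes.

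Ptf1a (ENSMUSG00000026735; chromosome 2, 19445663 to 19447501, plus strand, GRCm38 in GENCODE M21) and Rbpjl (ENSMUSG00000017007; chromosome 2, 164403141 to 164415448, plus strand) encode the acinar-specific subunits of PTF1. Their promoters are shown because the complex is known to act on its own genes, and that of Bhlha15 because its transcript is, with Rbpjl, the most abundant of the set. Each runs 5′ to 3′ on the plus strand from 250 bases before the RefSeq transcript start to 50 bases after it (RefSeq, GRCm38.p6). Capitals mark the E-box CANNTG, bound by bHLH proteins, and the RBPJ core TGGGAA, both searched on both strands. RefSeq windows were matched for 6 of the 8 genes, with 9 windows in all.
Ptf1a, chr2:19445413-19445712: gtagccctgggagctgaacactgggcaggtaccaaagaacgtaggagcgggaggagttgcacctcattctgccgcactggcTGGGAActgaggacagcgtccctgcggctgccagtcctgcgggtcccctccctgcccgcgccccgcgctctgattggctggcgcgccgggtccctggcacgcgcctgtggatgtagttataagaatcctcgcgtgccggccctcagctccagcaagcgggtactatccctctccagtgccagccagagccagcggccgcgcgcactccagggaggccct
Rbpjl, chr2:164402944-164403243: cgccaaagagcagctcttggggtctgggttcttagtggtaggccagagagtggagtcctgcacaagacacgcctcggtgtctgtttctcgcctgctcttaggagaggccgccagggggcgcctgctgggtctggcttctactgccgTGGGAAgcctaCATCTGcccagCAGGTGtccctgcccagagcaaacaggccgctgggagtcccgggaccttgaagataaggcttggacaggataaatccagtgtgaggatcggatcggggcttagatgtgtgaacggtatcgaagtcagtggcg
Bhlha15, chr5:144190036-144190335: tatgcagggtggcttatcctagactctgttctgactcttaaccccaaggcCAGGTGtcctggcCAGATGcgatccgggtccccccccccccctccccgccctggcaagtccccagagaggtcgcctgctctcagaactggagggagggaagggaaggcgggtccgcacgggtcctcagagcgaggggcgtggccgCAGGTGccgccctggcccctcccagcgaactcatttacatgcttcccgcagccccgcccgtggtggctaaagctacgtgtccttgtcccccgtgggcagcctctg

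The Rbpjl window holds 1 RBPJ core followed by 2 E-boxes, which start 11 and 22 bases after the start of the core on the same strand. Among 32817 promoter windows of the same length, 72.3% hold CANNTG and 25.6% hold TGGGAA. An E-box starting 11 bases after a core occurs in 0.122% of them and an E-box starting 22 bases after it in 0.159%, and 1 window, that of Rbpjl, has both. The spacing was looked for after this sequence had been read. The Ptf1a window holds 1 core and no E-box. The Bhlha15 window holds 3 E-boxes and no core, together with 2 matches to the NR5A site CAAGGNCA (6.71% of windows hold it), of which 1 overlaps an E-box.

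Among forms of the E-box, CACCTG was found in 4 of the 9 windows (in Rbpjl, Bhlha15, Nr5a2 and Foxa3) and in 20.2% of all windows. The form CAGCTG was found in 0 of 9, against 16.3% of all windows. The form CATATG was also found in 0 of 9, against 3.92%. The GATA site AGATAA was found in the windows of Rbpjl, Nr5a2 and Foxa2 (11.2% of all windows) and TGATAA in both windows of Nr5a2 (9.06%). The forkhead site TGTTTGC was found in Rbpjl (5.06%) and TGTTTAC in none of the 9 (3.65%). A match describes these letters and does not show that a factor is bound there.

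Ptf1a had 1428 and 2124 counts in CRFR1-KO, against 1889 and 1177 in WT. On the scaled library sizes this was 22.8 and 32.4 CPM in CRFR1-KO and 22.9 and 18.0 CPM in WT. CRFR1-KO 2 was the high library and WT 2 the low one, while CRFR1-KO 1 and WT 1 were level, so the genotypes overlapped. The log2 fold change was 0.44 (SE 0.23, 95% interval -0.10 to 0.97). The CRFR1-KO libraries differed from each other by 0.51 log2 units. It was 0.17 without CRFR1-KO 2 and 0.28 without WT 2, against 0.67 without CRFR1-KO 1 and 0.62 without WT 1. An antisense gene, Ptf1aos, shares 609 exon bases with Ptf1a and had at most 14 counts in any library. Whether the counting used strand is not stated, so reads of a gene and its antisense partner may not have been told apart.

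Rbpjl had 21058 and 23304 counts in CRFR1-KO, against 19890 and 19683 in WT, or 337 and 356 CPM against 241 and 301 CPM. Both CRFR1-KO libraries were above both WT libraries, with WT 1 the lowest on the scaled sizes. On library totals both were still above, but WT 2, with 19683 counts in 71203640, was lower than WT 1, with 19890 in 69960284. The log2 fold change of Rbpjl was 0.36 (SE 0.21, 95% interval -0.13 to 0.84), and was 0.21 without WT 1. With all 4 libraries it was close to the 0.32 log2 units between the WT libraries on the scaled sizes. The antisense neighbour Matn4, a matrilin gene with which Rbpjl shares 149 exon bases, had between 327 and 652 counts.

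Rbpj, which encodes the ubiquitous paralogue of RBPJL, ran the other way. It stood at 6.02 and 8.14 CPM in CRFR1-KO and 11.8 and 9.03 CPM in WT, with both CRFR1-KO libraries below both WT libraries. The log2 fold change was -0.55 (SE 0.23) and did not pass the edgeR test (unadjusted p = 0.0445, adjusted p = 0.9999). It was -0.35 without WT 1 and also without CRFR1-KO 1. A processed copy, Rbpj-ps3, had 15 and 26 counts in CRFR1-KO and 52 and 28 in WT, so how reads were divided between them is uncertain. Per length, Rbpjl exceeded Rbpj 125-fold and 97.3-fold in CRFR1-KO, against 45.5-fold and 74.1-fold in WT. The mean ratio was 111 ± 19 in CRFR1-KO and 59.8 ± 20.2 in WT (SD, n = 2 libraries each), a difference of 0.92 on the log2 scale with a two-sided exact permutation p of 0.333, the smallest the design allows. This ratio was chosen after the values of both genes had been seen. Rbpj is expressed in many cell types, and its order over the libraries, WT 1 highest and CRFR1-KO 1 lowest, was also that of the summed fibroblast and macrophage markers; their part in the ratio was not tested.

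**Figure D3:**
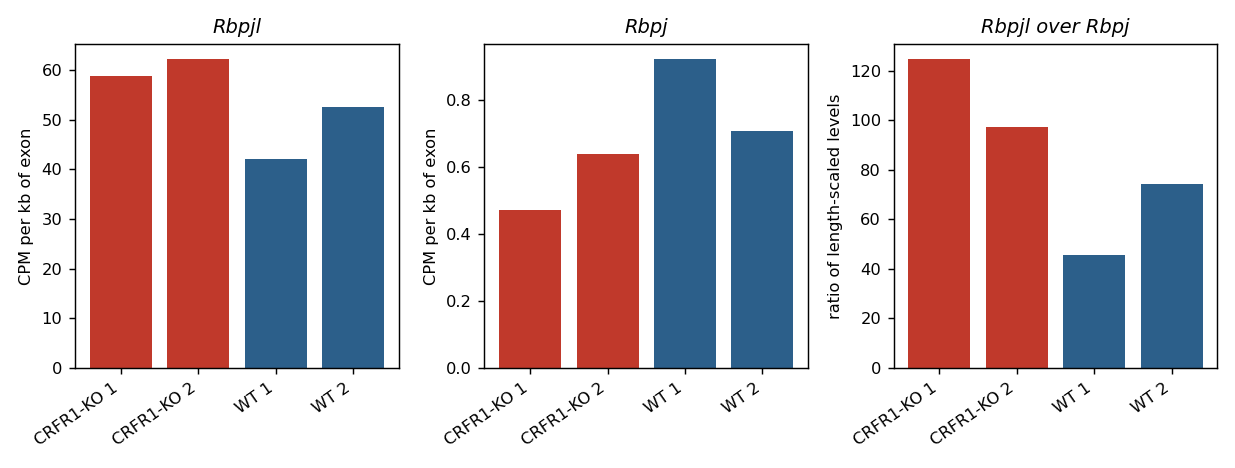
CPM per kb of annotated exon for Rbpjl and Rbpj, and the ratio of these levels, in the CRFR1-KO libraries (red) and the WT libraries (blue). The ratio is 125 and 97.3 in CRFR1-KO and 45.5 and 74.1 in WT.

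The E proteins that pair with PTF1A did not pass the test. Tcf3, encoding E12 and E47, averaged 4.87 ± 0.57 CPM in CRFR1-KO and 5.67 ± 1.65 CPM in WT, and Tcf12, encoding HEB, 9.77 ± 0.13 CPM in CRFR1-KO and 11.6 ± 1.8 CPM in WT (SD, n = 2 libraries each). Of the ID proteins, which bind E proteins and keep them off DNA, Id2 was at 3.46 and 4.70 CPM in CRFR1-KO against 8.78 and 8.85 CPM in WT. Its log2 fold change of -1.11 (SE 0.22) did not pass in edgeR (adjusted p = 0.566) and was called lower by DESeq2 (adjusted p = 0.0334). Id4 had 0 counts in both CRFR1-KO libraries and 20 and 33 counts in WT. Its WT mean was 7.95-fold the mean floor of 3 counts per CRFR1-KO library. This ratio takes the WT mean as measured and is not a lower limit. It also depends on what 1 count stands for, which is unsettled. The list of 8 genes joined Rbpj and the E-protein genes Tcf3, Tcf4 and Tcf12 with the inhibitor genes Id1, Id2, Id3 and Id4. Its counts and median therefore mix partners of PTF1A with inhibitors of those partners. Of the 8, 2 were measured higher (Tcf4 at 0.06 and Id1 at 0.11) and 6 lower. The median log2 fold change was -0.24, the same with Id4 set at the 7.95-fold ratio, and edgeR called 0. The 3 with unadjusted p-values under 0.05, Id2, Id4 and Rbpj, were all measured lower. Of all tested genes 4.86% had such an edgeR p-value, 3.15% being lower. The median was -0.17 without CRFR1-KO 1, -0.47 without CRFR1-KO 2, -0.21 without WT 1 and -0.44 without WT 2.

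Among 15 acinar enzyme and secretory granule genes of the kind PTF1 acts on, 9 were measured higher and 6 lower, with a median log2 fold change of 0.17, and edgeR, DESeq2 and limma-voom called 0 of them (also 0 before adjustment in edgeR). Carboxypeptidase Cpa1 averaged 35774 ± 2414 CPM in CRFR1-KO and 29053 ± 5593 CPM in WT, and the granule membrane protein gene Gp2 3921 ± 131 CPM in CRFR1-KO and 4751 ± 918 CPM in WT (SD, n = 2 libraries each). The lipase Pnlip and the chymotrypsin-like protease Ctrl had log2 fold changes of 0.30 and 0.25. On the scaled sizes WT 1 was the lowest library for Cpa1, Pnlip and Ctrl, as it was for Rbpjl. On library totals WT 1 was lowest for Cpa1 and Ctrl, and WT 2 for Pnlip and Rbpjl. Ctrl was at 0.03 and Cpa1 at 0.12 without WT 1, Pnlip at 0.09 without CRFR1-KO 1, and Gp2 at -0.06 without WT 2 and -0.46 without WT 1. The median of the 15 was -0.02 without WT 1, with 7 higher and 8 lower, 0.10 without CRFR1-KO 1, and 0.31 without WT 2, with 13 higher and 2 lower.

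Bhlha15 (ENSMUSG00000052271; chromosome 5, 144190286 to 144194441, plus strand) had 10251 and 12568 counts in CRFR1-KO, against 11515 and 8584 in WT, or 164 and 192 CPM against 139 and 131 CPM. Both CRFR1-KO libraries lay above both WT libraries on the scaled sizes, but not on library totals, where CRFR1-KO 1 lay below WT 1. Its log2 fold change was 0.40 (SE 0.19, 95% interval -0.05 to 0.84), and its unadjusted edgeR p of 0.0747 was the smallest of the 8. On the scaled sizes, but not on library totals, this difference was larger than that between libraries of a genotype. On the scaled sizes the latter was 0.23 log2 units in CRFR1-KO and -0.09 in WT. The log2 fold change remained between 0.29 and 0.51 when each library in turn was left out. No other gene model shares exon bases with Bhlha15.

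Among 8 genes that MIST1 is known to act on or that serve regulated secretion beside it, 6 were measured higher and 2 lower (median log2 fold change 0.13), and 0 passed in edgeR. The median was 0.05 without CRFR1-KO 1 and without WT 1, and 0.23 without WT 2, each with 5 higher and 3 lower. Itpr2, a calcium release channel of the endoplasmic reticulum, was the sole gene of these with an unadjusted p under 0.05 (4.86% of all genes). It was at 10.5 and 12.6 CPM in CRFR1-KO and 8.12 and 8.04 CPM in WT. Its log2 fold change was 0.51 (edgeR adjusted p = 0.985). The calcium pump gene Atp2c2 and the gap junction gene Gjb1 had log2 fold changes of 0.20 and 0.16, with both CRFR1-KO libraries above both WT libraries. Rab26, encoding a granule-associated small GTPase, was at 0.16 and shares exon bases with Traf7 on the same strand, so how its reads were divided is uncertain.

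Nr5a2 (ENSMUSG00000026398; chromosome 1, 136842571 to 136960448, minus strand) had 1828 and 1787 counts in CRFR1-KO, against 2288 and 1292 in WT, or 29.2 and 27.3 CPM against 27.7 and 19.7 CPM. WT 2 was low and the other 3 libraries were alike. The log2 fold change of 0.25 (SE 0.21, 95% interval -0.23 to 0.74) became 0.03 without WT 2 and 0.52 without WT 1. Nr0b2, encoding SHP, a corepressor that binds NR5A2, averaged 2.88 ± 0.47 CPM in CRFR1-KO and 3.24 ± 0.87 CPM in WT, a log2 fold change of -0.17 that turned to 0.13 without WT 1. Cel, the carboxyl ester lipase gene known as an NR5A2 target, averaged 33724 ± 2351 CPM in CRFR1-KO and 30045 ± 2333 CPM in WT (SD, n = 2 libraries each), with a fold change of 0.17 on the log2 scale. The steroidogenic relative Nr5a1 had at most 4 counts in a library.

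Gata4 (ENSMUSG00000021944; chromosome 14, 63198922 to 63271692, minus strand) had 1878 and 2435 counts in CRFR1-KO, against 2219 and 2000 in WT, or 30.0 and 37.2 CPM against 26.8 and 30.6 CPM. CRFR1-KO 2 was highest. CRFR1-KO 1 lay between the WT libraries on the scaled sizes and below both on library totals. The log2 fold change was 0.23 (SE 0.19, 95% interval -0.21 to 0.66), and was 0.08 without CRFR1-KO 2 and 0.14 without WT 1, against 0.38 without CRFR1-KO 1. Zfpm1, encoding FOG1, a cofactor of GATA proteins, was at 17.7 and 24.2 CPM in CRFR1-KO and 15.5 and 18.2 CPM in WT (log2 fold change 0.31, SE 0.20). This was 0.08 without CRFR1-KO 2, 0.20 without WT 1 and 0.52 without CRFR1-KO 1. Zfpm2, encoding FOG2, had 14 and 4 counts in CRFR1-KO and 24 and 22 in WT.

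Gata6 (ENSMUSG00000005836; chromosome 18, 11052064 to 11085635, plus strand), which overlaps with Gata4 in function during pancreas development, had 419 and 471 counts in CRFR1-KO, against 536 and 592 in WT. After scaling it was at 6.70 and 7.19 CPM in CRFR1-KO and 6.48 and 9.05 CPM in WT. On these scaled sizes WT 2 was high and WT 1 lowest, so the CRFR1-KO libraries lay between the WT libraries. On library totals both CRFR1-KO libraries lay below both WT libraries. These totals were 70074733 and 63495457 in CRFR1-KO and 69960284 and 71203640 in WT. The log2 fold change of Gata6, -0.16 (SE 0.22, 95% interval -0.67 to 0.35), was the sole negative value of the 8. It turned to 0.10 without WT 2 and to -0.38 without WT 1. An antisense model, 1010001N08Rik, shares 93 exon bases with Gata6 and had between 30 and 61 counts. The relatives Gata1, Gata3 and Gata5 had at most 8 counts in a library, and Gata2 between 30 and 57.

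Foxa2 (ENSMUSG00000037025; chromosome 2, 148042877 to 148046969, minus strand) had 661 and 833 counts in CRFR1-KO, against 852 and 633 in WT, or 10.6 and 12.7 CPM against 10.3 and 9.67 CPM. The genotypes did not overlap on the scaled sizes, though CRFR1-KO 1 and WT 1 were nearly level, and they overlapped on library totals. The log2 fold change was 0.22 (SE 0.18, 95% interval -0.19 to 0.64), and was 0.09 without CRFR1-KO 2 and 0.35 without CRFR1-KO 1. Foxa2 is also an islet gene, and the summed islet markers, at 246 and 305 CPM in CRFR1-KO against 43.3 CPM in WT 1 and 282 CPM in WT 2, also differed between libraries. Their part in the Foxa2 values was not tested. Foxa2 varied least of the 8 over the 4 libraries, with the highest library 1.32 times the lowest, and Ptf1a most, at 1.80 times.

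Foxa3 (ENSMUSG00000040891; chromosome 7, 19013284 to 19023538, minus strand), the third FOXA factor, had 500 and 524 counts in CRFR1-KO, against 700 and 355 in WT. It stood at 8.00 CPM in both CRFR1-KO libraries, against 8.47 and 5.42 CPM in WT, so that the CRFR1-KO libraries lay between the WT libraries. The log2 fold change of 0.20 (SE 0.24, 95% interval -0.37 to 0.77) turned to -0.08 without WT 2 and was 0.56 without WT 1. Foxa1, the remaining member of the family, had 8 counts in CRFR1-KO 2 and 0 in the other 3 libraries.

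**Figure D4:**
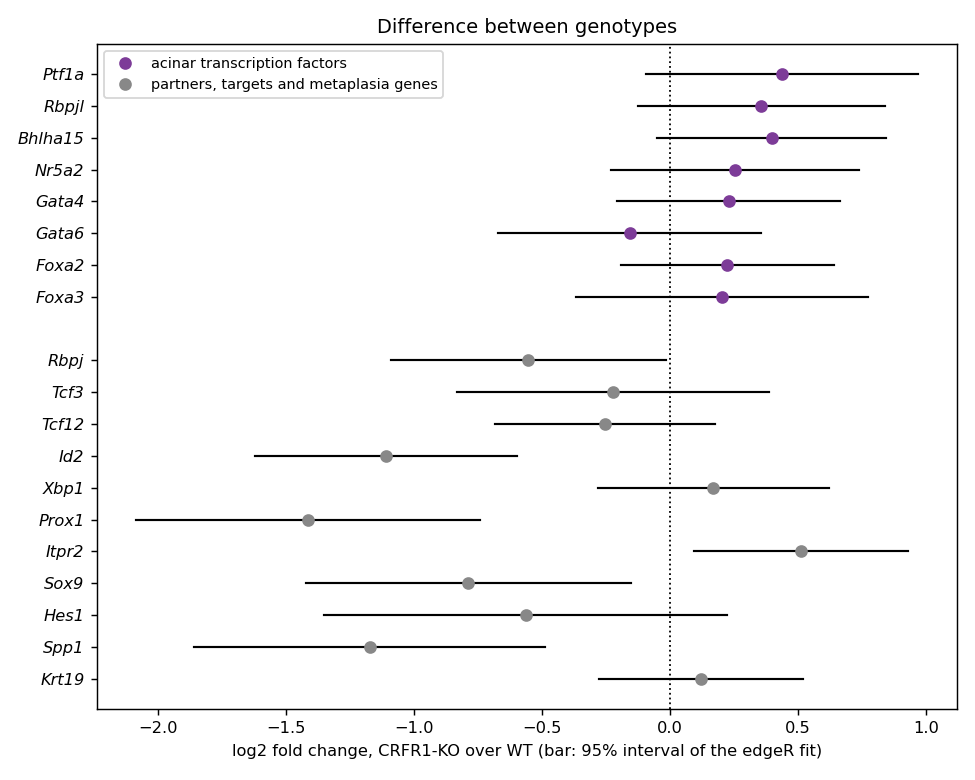
Log2 fold change of CRFR1-KO over WT with the 95% interval of the edgeR fit. The 8 transcription factors are in purple. Partners, the inhibitor gene Id2, other regulators, targets and metaplasia genes are in grey. The intervals of the 8 factors all span 0, with Bhlha15 reaching from -0.05 to 0.84, while those of Rbpj, Id2, Prox1, Sox9 and Spp1 lie below 0 and that of Itpr2 above 0, none of which passed the edgeR adjustment over all genes.

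Profiles over the 4 libraries were compared as log2(CPM + 0.5) centred on each gene's mean, by the root mean square distance in log2 units. Within the set, Nr5a2 and Foxa3 were nearest to each other, at a distance of 0.06, and both were low in WT 2. Foxa3 was the 55th nearest gene to Nr5a2 among 5734 candidates with a mean of at least 5 CPM, and Nr5a2 the 41st nearest to Foxa3. Gata6 had the least likeness to the other 7, its nearest being Gata4 at 0.21, ranked 2756th. The genes nearest to Ptf1a were Nup98, encoding a nucleoporin, and Pdrg1 (distances 0.03 and 0.04). Those nearest to Rbpjl were Pitpnm2 and Fam173a (0.01 and 0.02), and to Bhlha15 Pde4dip and Cab39l (both 0.02). Nr5a2 was closest to Rnf8 and Rab25, Gata4 to Itpkb and Tmtc3, Gata6 to Atxn1 and Sidt2, Foxa2 to Psmd5 and Zdhhc6, and Foxa3 to Fam53b and Uba3, all at distances of 0.01 to 0.02. Profiles of 4 points are easily matched, and these distances are a description.

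Of 12 other pancreatic regulators, 11 were tested, 9 measured higher and 2 lower, and 0 passed in edgeR. The median log2 fold change was 0.17, with 0.03 without WT 2 and 0.35 without WT 1. Xbp1, which drives the secretory stress response, averaged 292 ± 29 CPM in CRFR1-KO and 260 ± 2.6 CPM in WT (SD, n = 2 libraries each). Prox1, a homeobox gene, was at 1.89 and 1.37 CPM in CRFR1-KO and 3.98 and 4.72 CPM in WT, lower in both CRFR1-KO libraries, with a log2 fold change of -1.41 (SE 0.29, edgeR adjusted p = 0.586) that DESeq2 called (adjusted p = 0.0384). Hnf4a and Pdx1, factors of the wider pancreatic epithelium, had log2 fold changes of 0.17 and 0.07. Mecom, Creb3l2 and Insm1 were at 0.28, 0.35 and 1.92, with SEs of 0.20, 0.29 and 1.49. Creb3l2 turned to -0.03 without WT 2 and was 0.89 without WT 1. Mecom was 0.10 without WT 2 and 0.48 without WT 1. Insm1 was 0.90 without WT 1, and its counts were 18 and 26 in CRFR1-KO, 0 in WT 1 and 12 in WT 2. The summed islet markers were also lowest in WT 1, at 43.3 CPM. They were at 282 CPM in WT 2 and at 246 and 305 CPM in CRFR1-KO. Their part in the Insm1 values was not tested.

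Of 17 metaplasia and progenitor genes, 6 were measured higher and 11 lower, with a median log2 fold change of -0.18, and edgeR called 0. Sox9, Spp1 and Cd44 were the 3 with unadjusted p-values under 0.05, all measured lower. Among all tested genes the edgeR share was 4.86%, with 3.15% lower. Sox9, the ductal and progenitor factor, was at 6.08 and 4.93 CPM in CRFR1-KO and 11.8 and 7.21 CPM in WT (edgeR adjusted p = 0.977 for a log2 fold change of -0.79). Spp1, encoding osteopontin, was at 44.8 and 46.8 CPM in CRFR1-KO and 134 and 72.9 CPM in WT, a log2 fold change of -1.17 (SE 0.29) that DESeq2 called lower (adjusted p = 0.00951) and edgeR did not (adjusted p = 0.801). Spp1 shares 309 exon bases with Gm42793 on the same strand, which had at most 27 counts. The adhesion receptor gene Cd44 and the Notch target Hes1 had log2 fold changes of -1.32 and -0.56. The ductal keratin gene Krt19 was at 9.12 and 9.88 CPM in CRFR1-KO and 8.87 and 8.60 CPM in WT. WT 1 was the highest library for Sox9, Spp1, Cd44 and Hes1, as it was for the summed fibroblast markers. It was also highest for the summed ductal markers. These were 192 and 188 CPM in CRFR1-KO, against 309 CPM in WT 1 and 220 CPM in WT 2. That ductal sum includes Sox9 and Spp1, and Spp1 alone gave 134 of the 309 CPM in WT 1. For these 2 genes the likeness to the ductal sum is therefore partly built in. The part of fibroblast and ductal cells in the values was not tested. Without WT 1 the median of the 17 genes was -0.01, with Sox9 at -0.39, Spp1 at -0.67, Cd44 at -0.49 and Hes1 at -0.26. Hes1 was also at -0.30 without CRFR1-KO 1 and at -0.88 without CRFR1-KO 2, and the median was -0.11 without CRFR1-KO 2.

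**Figure D5:**
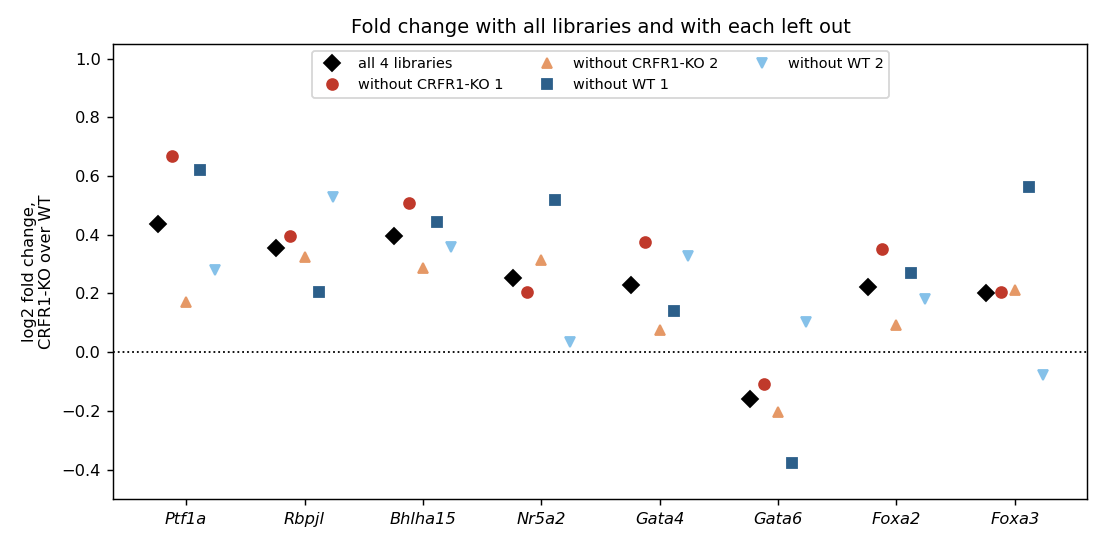
Log2 fold change of CRFR1-KO over WT for the 8 transcription factors, with all 4 libraries (black) and with each library left out in turn. Gata6 and Foxa3 change sign without WT 2, at 0.10 and -0.08, and the other 6 stay above 0 in every fit.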

How the data were processed

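The authors deposited unnormalized whole-number counts by Ensembl gene for the 4 libraries, and no column was left unmapped. Per the labels' protocols, mRNA was selected on oligo(dT), and the libraries were strand-marked with dUTP. FastQC, DESeq2 and edgeR are named per the submitters' processing notes, without roles. The sources used here name no aligner, counter, strand setting or build. In each library a count of 4 was more frequent than 3 or 5 (in CRFR1-KO 1, 912 genes against 356 and 216), so the meaning of 1 count is unsettled. The floor of 3 counts covers counting error only, and the 95% intervals are those of the edgeR fit.

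Symbols and positions came from GENCODE M21. The test was the two-sided quasi-likelihood F test of edgeR 4.0.16 under R 4.3.3, with TMM scaling, the filterByExpr filter and genotype as the sole term, with Benjamini-Hochberg adjustment over 15131 genes at 0.05. SEs come from the F statistic, and CPM values use TMM-scaled library sizes. The TMM factors were 0.892 for CRFR1-KO 1, 1.03 for CRFR1-KO 2, 1.18 for WT 1 and 0.919 for WT 2. Unless stated, whether libraries overlapped was read on these scaled sizes. Levels per length used all annotated exon bases. Alternatives were other scalings, filters, DESeq2 1.42.0, limma-voom (limma 3.58.1), robust estimation, a block on replicate number and dropping each library in turn. Division of counts by 4 and the principal transcript length were chosen after seeing the data. The fit was checked on simulated data. Members and lists were chosen with earlier results of these data known. Beside the 8 factors, up to 4 genes per list were named by smallest p, with partners of fixed role and the 2 nearest profiles per factor. Cel, Nr5a1, Gata1, Gata3 and Gata5 and the Rbpjl to Rbpj ratio were chosen after their values were seen. Motif windows are RefSeq promoters.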

Additional observations from a re-analysis of the deposited data

How the results depend on the processing

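In every alternative 0 of the 8 factors passed. With all 4 libraries their log2 fold changes kept their sign under each scaling, filter and test tried. Scaling on library totals moved the median of all tested genes to -0.13, against -0.01, and the factors shifted with it, to 0.31 for Ptf1a, 0.27 for Bhlha15 and 0.04 for Foxa3. Leaving out each library in turn, Gata6 ran from -0.3787 to 0.1043 and Foxa3 from -0.0774 to 0.5623, in both cases with the change of sign without WT 2 and the other end without WT 1. Over all genes edgeR called 4, and 735 genes had an unadjusted p under 0.05 in edgeR. The DESeq2 Wald test called 58, limma-voom 0 and edgeR with a replicate block 7. Of the 58, 3 were in the lists of partners with their inhibitors, relatives, other pancreatic regulators, targets and metaplasia genes, namely Id2, Prox1 and Spp1. Leaving out each library in turn gave 0 to 69 calls: 2 without CRFR1-KO 1, 0 without CRFR1-KO 2, 40 without WT 1 and 69 without WT 2. In the lists it gave 0 to 1, the 1 being Spp1 without WT 2 (edgeR adjusted p = 0.009). The cause was not tested. Such fits leave a genotype with a lone library that is assumed to vary like the others.

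The replicate numbers do not show pairing: the deviations of same-numbered libraries correlated at -0.07 over 15131 genes, and the replicate block changed no call among the 8. On the principal transcript length Rbpjl, Nr5a2, Gata4 and Gata6 moved to 125.6, 13.98, 9.236 and 2.275 CPM per kb. With 2 libraries a genotype, the 95% intervals of the 8 factors leave room for differences up to a fold of 1.96 upward and 0.628 downward.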
